A study of Mus musculus with 8 samples.

Results

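The genes described here encode 9 enzymes that make NADPH in the liver cell or carry carbon through the pentose phosphate pathway: G6pdx, Pgls and Pgd, Rpia, Tkt and Taldo1, Me1, Idh1 and H6pd. For each, the probe set was taken whose annotation names that gene alone and, where a gene had several, the brightest over all arrays. This gave values for 8 of the 9 genes, among 19938 genes measured in all, and G6pdx was not analysed here. Liver RNA of 4 OVX mice fed with HFD (a high fat diet) and of 4 OVX mice fed with HFD+WBM (that diet with freeze-dried white button mushroom powder and with less corn starch) had been hybridized to Affymetrix Mouse Gene 1.0 ST arrays, each mouse to its own array. All 8 were female C57B1/6J mice, ovariectomized at 7 weeks of age as a model of postmenopausal women, and the diets ran for 3 months from the week after surgery. The livers are 4 of the 8 per diet group, estrogen made outside the ovary remains in such mice, and sham-operated mice were not analysed here. Mushroom powder and the lower starch content came together in HFD+WBM and cannot be told apart here. The question was whether the mushroom diet altered the transcripts of this supply route in the fatty livers of OVX mice.

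NADPH is the electron donor that fatty acid synthase, cholesterol synthesis and the glutathione and thioredoxin systems draw on. In the cytosol of the liver cell it comes mainly from the oxidative arm of the pentose phosphate pathway and from malic enzyme and isocitrate dehydrogenase. The oxidative arm takes glucose-phosphate through G6pdx, Pgls and Pgd to ribulose-phosphate, and the non-oxidative arm (Rpia, Rpe, Tkt and Taldo1) converts ribulose-phosphate to ribose-phosphate and back to glycolytic sugars. H6pd does the work of G6pdx and Pgls inside the endoplasmic reticulum, where its NADPH serves the steroid reductase Hsd11b1. Several of the cytosolic enzymes are known to be induced with lipogenesis after carbohydrate feeding, and several are known targets of the antioxidant factor NRF2.

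Promoter windows of 4 of the genes are shown because the results below turn on them. These are Pgd and Me1, for which replicate 1 was the lowest HFD mouse and the highest HFD+WBM mouse. The others are Rpia, which was lower in every HFD+WBM mouse, and H6pd, the gene whose estimate was above 0. Each runs from 100 bases before to 20 bases after the most upstream annotated start, in the direction of the gene, and comes from RefSeq (GRCm38.p6). Capitals mark a match to the core of the antioxidant response element.
Pgd (chr4:149166686-149166805, minus strand): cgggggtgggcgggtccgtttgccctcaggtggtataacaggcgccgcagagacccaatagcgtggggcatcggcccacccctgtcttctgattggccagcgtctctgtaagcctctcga
Me1 (chr9:86695895-86696014, minus strand): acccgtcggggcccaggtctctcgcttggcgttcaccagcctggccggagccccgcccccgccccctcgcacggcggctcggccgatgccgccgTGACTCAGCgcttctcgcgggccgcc
Rpia (chr6:70792156-70792275, minus strand): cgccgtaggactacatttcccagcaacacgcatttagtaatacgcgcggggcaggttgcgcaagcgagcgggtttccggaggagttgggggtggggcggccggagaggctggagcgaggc
H6pd (chr4:150003217-150003336, minus strand): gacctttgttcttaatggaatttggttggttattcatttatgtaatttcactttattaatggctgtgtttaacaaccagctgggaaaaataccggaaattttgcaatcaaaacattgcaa

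The windows differ in base composition. The GC content was 78.3% for Me1, 65.0% for Rpia and 64.2% for Pgd, and 31.7% for H6pd, against a median of 55.0% over 32851 windows of this length. The Me1 match, TGACTCAGC, spans the start (bases -6 to 3, with 1 the first transcribed base) and is the core TGACNNNGC of the antioxidant response element. In the whole promoters of the table (250 bases before to 50 after a start), this core was found on either strand in 12.4% of all promoters and in 2 of 11 promoters of the 8 genes. The other match lay at bases 4 to 12 of a second, downstream Pgd start. None of the 11 held the sterol regulatory element TCACNCCAC (1.24% of all promoters), the E-box CACGTG (7.15%), the paired E-box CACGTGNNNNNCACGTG (none of 32851) or the DR4 repeat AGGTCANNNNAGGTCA (0.0152%). Most of these exact strings are rare in promoters of this length, so their absence from 11 does not show that the genes lack such sites. Both matches to the antioxidant core were also found on the forward strand alone.

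Values are log2 expression values per probe set, and the diets were compared with limma over all 19938 genes. Below, a gene passed where its unadjusted p was under 0.05. At that threshold 6.9% of all genes were lower and 4.85% higher with HFD+WBM. No gene of the array passed an adjusted p under 0.05 (Benjamini-Hochberg, limma), against 2341 at p under 0.05 before adjustment, and the methods' t-test also gave 0 after adjustment. Array medians over these genes ran from 7.23 to 7.37, and the array of HFD replicate 3 stood farthest from the mean of the others (SD over genes 0.68, against 0.38 to 0.50 for the other 7). With 4 mice against 4, an exact permutation test cannot give a two-sided p below 0.029.

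Transcripts of the cytosolic pentose phosphate pathway were in part lower with HFD+WBM. Pgd and Rpia were the lower ones among the 8 genes, or 25% against 6.9% of all genes. No gene was higher, against 4.85% of all genes, and 6 did not pass. Pgd was 1.89-fold and Rpia 1.77-fold lower. In 3 genes, Rpia, Taldo1 and Pgls, every HFD+WBM mouse lay below every HFD mouse, as in 5.02% of all genes, and in none did every HFD+WBM mouse lie above, as in 3.21%. The estimate was below 0 for 7 of the 8 genes, against 49.3% of all genes, and above 0 for H6pd. The median log2 fold change was -0.29 over the 8 genes and 0.01 over all genes. Neither Pgd nor Rpia reached the 2-fold change of the study's thresholds, which 0.762% of all genes passed, and the smallest adjusted p among the 8 genes was 0.37 (limma, Rpia).

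**Figure D1:**
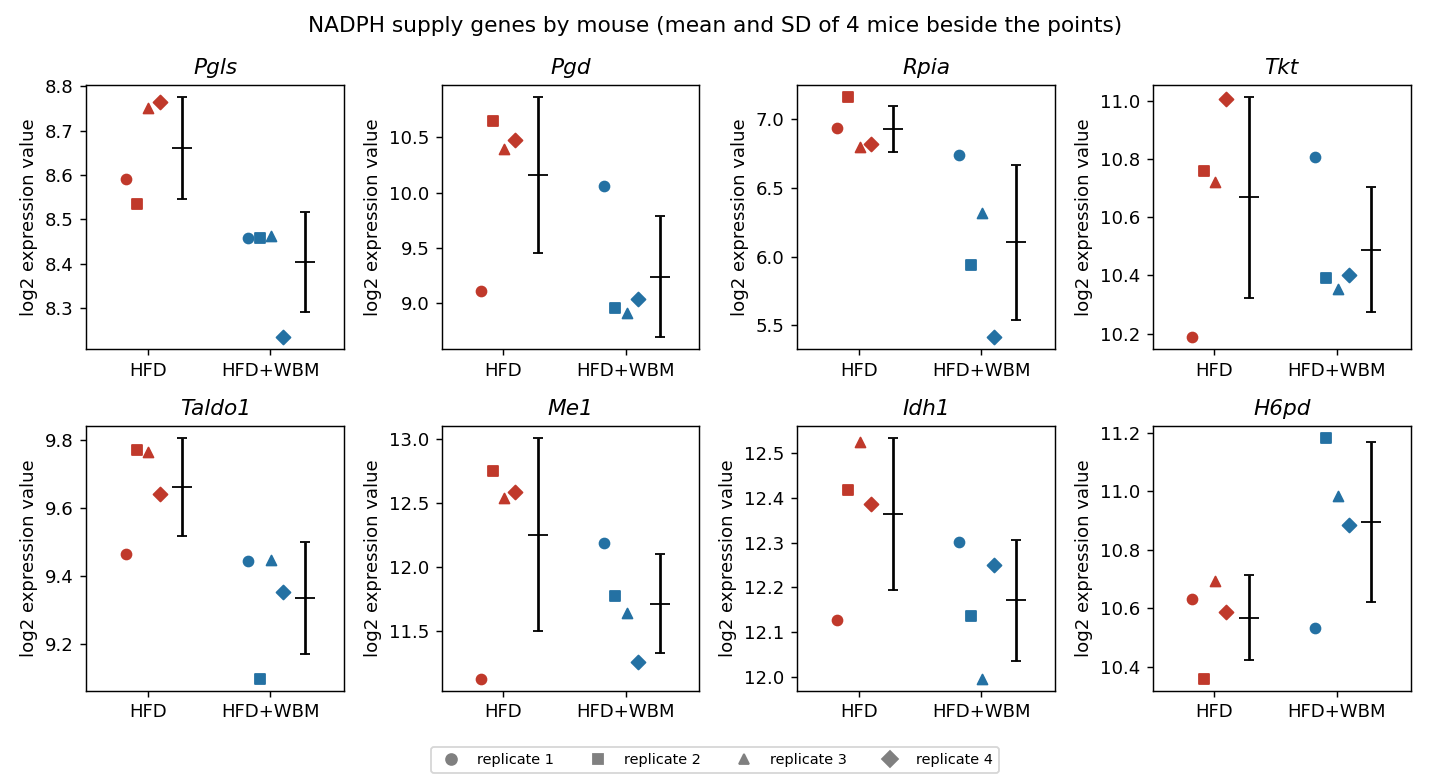
Log2 expression value of each gene per liver, red for HFD and blue for HFD+WBM, a marker shape for each replicate, and bars for mean and SD (4 livers); each panel has its own axis. The groups do not overlap for Pgls, Rpia and Taldo1, and for Pgd, Tkt, Me1 and Idh1 HFD replicate 1 lies below HFD+WBM replicate 1.

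Among the oxidative enzymes, Pgd, the 6-phosphogluconate dehydrogenase that makes the second NADPH of the pathway, differed most. Its log2 values in HFD replicates 1 to 4 were 9.11, 10.65, 10.39 and 10.48, and in HFD+WBM replicates 1 to 4 they were 10.06, 8.95, 8.91 and 9.03. Replicate 1 of each diet crossed to the range of the other, and every other HFD mouse was higher than all HFD+WBM mice. The mean fell from 10.16 ± 0.71 (SD, n = 4) to 9.24 ± 0.55 (SD, n = 4), or by a log2 difference of -0.92 (standard error 0.38, 95% interval -1.76 to -0.08), with p = 0.035 before adjustment and 0.40 after by limma and p = 0.057 by a two-sided exact permutation test. Pgd did not pass by the methods' t-test (p = 0.085 before adjustment, beside the exact permutation p above). Without HFD replicate 1 the log2 fold change was -1.27, and the p threshold was not passed without replicate 2, 3 or 4 of either diet.

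Pgls, the lactonase between G6pdx and Pgd, differed little but without overlap. It read 8.59, 8.54, 8.75 and 8.77 in HFD replicates 1 to 4 and 8.46, 8.46, 8.46 and 8.23 in HFD+WBM replicates 1 to 4. All HFD+WBM mice were below all HFD mice, with the log2 difference at -0.26 (standard error 0.14, 95% interval -0.57 to 0.05). Limma gave p = 0.094 before adjustment, and the two-sided exact permutation test p = 0.029, the smallest possible. Limma draws the variance of a gene toward that of all genes, and the SD of Pgls was 0.12 (HFD) and 0.11 (HFD+WBM). The methods' t-test, which does not moderate the variance, gave p = 0.019 before adjustment, beside the exact permutation p above.

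H6pd, the enzyme of the endoplasmic reticulum, had its estimate on the other side of 0. The HFD mice read 10.63, 10.36, 10.69 and 10.59 in replicates 1 to 4, and the HFD+WBM mice 10.53, 11.18, 10.98 and 10.88. Replicates 2, 3 and 4 with HFD+WBM lay above all HFD mice, and HFD+WBM replicate 1 lay among them. The log2 fold change was 0.33 (standard error 0.17, 95% interval -0.06 to 0.72, p = 0.090 before adjustment, limma; exact permutation p = 0.11, two-sided). Without HFD+WBM replicate 1 it was 0.45 and passed, in only that 1 of the 8 omissions of a single mouse. The per-mouse difference of Pgd minus H6pd in log2 value averaged -0.41 ± 0.78 (SD, n = 4) for HFD, from -1.52 to 0.29, and -1.66 ± 0.80 (SD, n = 4) with HFD+WBM, from -2.23 to -0.48, so that the groups overlapped. This pair was chosen after its values were seen and was not tested.

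Among the non-oxidative enzymes, Rpia, the isomerase that makes ribose-phosphate for nucleotides, fell. Its values were 6.93, 7.16, 6.79 and 6.82 in HFD replicates 1 to 4, and 6.74, 5.94, 6.32 and 5.41 in HFD+WBM replicates 1 to 4. The groups did not overlap, but the highest HFD+WBM mouse (6.74) was close to the lowest HFD mouse (6.79). The mean was 6.93 ± 0.17 for HFD and 6.10 ± 0.56 for HFD+WBM (SD, n = 4 each), and the log2 fold change -0.82 (standard error 0.26, 95% interval -1.41 to -0.23, p = 0.012 before adjustment and 0.37 after, limma; two-sided exact permutation p = 0.029). Rpia passed p under 0.05 with any single mouse left out, with a log2 fold change of between -1.04, when HFD+WBM replicate 1 was left out, and -0.59, when HFD+WBM replicate 4 was. Its probe set is dim, since 33.0% of genes had a mean at or below its own, and its log2 fold change was -0.46 with an offset of 64 before the log.

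The transaldolase Taldo1 and the transketolase Tkt, which pass carbon units between the sugars of this arm, did not pass. Taldo1 read 9.46, 9.77, 9.77 and 9.64 in HFD replicates 1 to 4, and 9.44, 9.10, 9.45 and 9.35 in HFD+WBM replicates 1 to 4. The groups did not overlap, although HFD replicate 1 lay close to the highest HFD+WBM mice, and the log2 fold change was -0.33 (standard error 0.15, 95% interval -0.66 to 0.01, p = 0.056 before adjustment, limma; exact permutation p = 0.029, two-sided). Tkt was 10.19, 10.76, 10.72 and 11.01 with HFD, and 10.81, 10.39, 10.35 and 10.40 with HFD+WBM, in replicates 1 to 4. HFD replicate 1 was the lowest of the 8 mice and HFD+WBM replicate 1 the second highest, and the log2 fold change was -0.18 (standard error 0.20, 95% interval -0.63 to 0.27, p = 0.40 before adjustment, limma; exact permutation p = 0.43, two-sided).

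Of the other cytosolic sources of NADPH, Me1, the malic enzyme that returns malate to pyruvate, varied most between mice. It read 11.13 in HFD replicate 1 and 12.75, 12.54 and 12.59 in HFD replicates 2, 3 and 4, and 12.19, 11.78, 11.64 and 11.26 in HFD+WBM replicates 1 to 4. HFD replicate 1 was the lowest of all 8 mice, while the other 3 HFD mice were above every HFD+WBM mouse. The log2 fold change was -0.54 (standard error 0.36, 95% interval -1.34 to 0.26, p = 0.17 before adjustment, limma; exact permutation p = 0.29, two-sided), and without HFD replicate 1 it was -0.91 with p = 0.0035 before adjustment. That was the only 1 of the 8 omissions of a single mouse in which Me1 passed. Me1 has 2 probe sets, which differed by at most 0.07 in any mouse and gave log2 fold changes of -0.54 and -0.55.

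Idh1, the cytosolic isocitrate dehydrogenase, was 12.13, 12.42, 12.53 and 12.39 in HFD replicates 1 to 4 and 12.30, 12.14, 12.00 and 12.25 in HFD+WBM replicates 1 to 4. The ranges overlapped and the log2 fold change was -0.19 (standard error 0.15, 95% interval -0.53 to 0.14, p = 0.23 before adjustment, limma; exact permutation p = 0.17, two-sided). The difference of Me1 minus Idh1 was compared between the diets as a test of unequal change of these parallel enzymes. It went from -0.11 ± 0.60 (HFD, SD, n = 4) to -0.46 ± 0.38 (HFD+WBM, SD, n = 4), and the exact permutation test, two-sided, gave p = 0.37 for the 1 pair tested, which does not show that they changed alike. The leave-one-out range of the difference was -0.64 to -0.16.

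**Figure D2:**
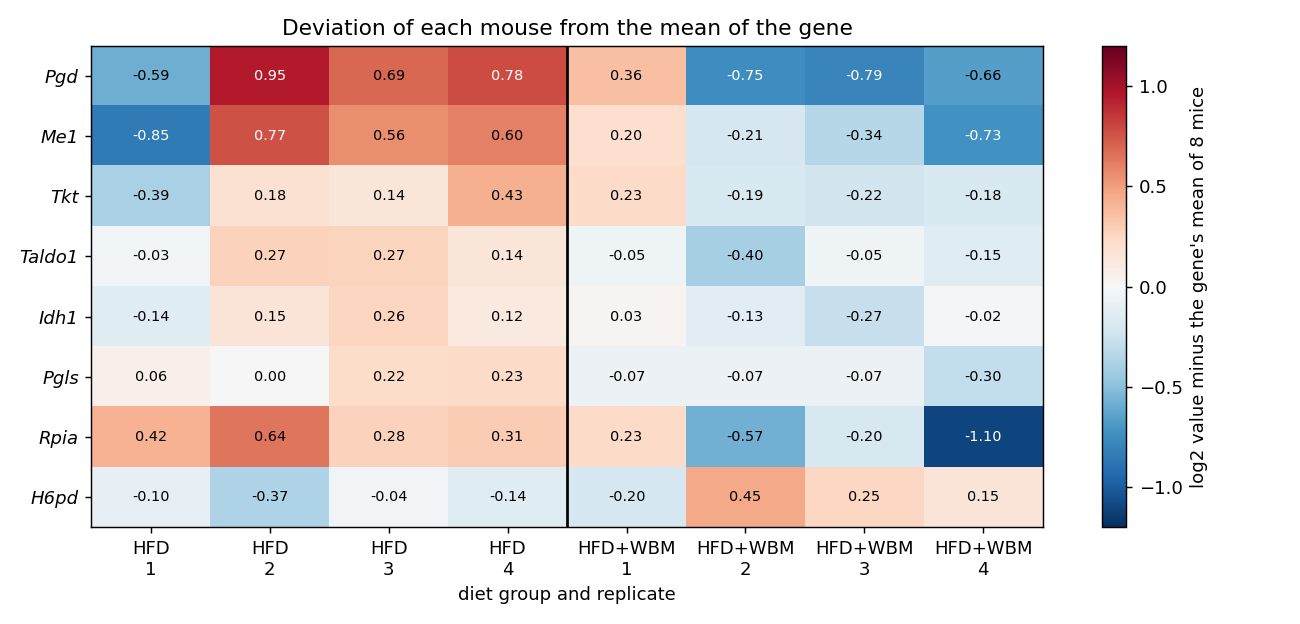
Deviation of each mouse from the mean of the gene over 8 mice (log2, colour and number), with the genes in rows and the mice in columns, HFD to the left of the line. In Pgd, Me1, Tkt and, by less, Idh1, HFD replicate 1 is below the mean and HFD+WBM replicate 1 above it, which is not so in Rpia or Pgls.

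The 8 genes did not share 1 pattern from mouse to mouse. Pgd and Me1 were alike in part: HFD replicate 1 deviated from the mean of all mice by -0.59 for Pgd and -0.85 for Me1, and HFD+WBM replicate 1 by 0.36 and 0.20. In HFD+WBM replicates 2, 3 and 4 they differed, with -0.75, -0.79 and -0.66 for Pgd and -0.21, -0.34 and -0.73 for Me1. Of the 19937 other genes, ranked by the root mean square difference of centred log2 values over the 8 mice, Me1 was number 23 from Pgd (difference 0.29). Ranked from Me1, Pgd was number 40. The nearest to Pgd were Acaca, the acetyl-CoA carboxylase (0.12), Rassf6 (0.14) and Gpam, the first acyltransferase of glycerolipid synthesis (0.16), and Pgd itself deviated from its own mean by 0.72. The nearest to Me1 were Scd4, a stearoyl-CoA desaturase (0.16), Gpam (0.22) and Accsl (0.22), against a deviation of Me1 from its own mean of 0.58. Rpia was number 480 from Pgd (difference 0.51), behind Me1 and Tkt (number 371) among the 8 genes. The genes nearest to Rpia were dim ones, Olfr103 (0.19, mean log2 value 4.91), Cyp1a1 (0.20, mean 5.21) and Olfr1188 (0.20, mean 3.55). H6pd was number 16941 from Pgd, and the genes nearest to H6pd were Tbc1d16 (0.06), Phf7 (0.09) and Brpf3 (0.09). H6pd deviated from its own mean by 0.25. Pgls, Taldo1, Tkt and Idh1 deviated from theirs by 0.16, 0.21, 0.26 and 0.16, and their nearest genes lay at 0.05 to 0.08. These were Vmn1r211, Slc38a7 and Pip4k2c for Pgls, Ergic1, Prdx3 and Smdt1 for Taldo1, Esyt2, Tmem35b and Depdc5 for Tkt, and Acot13, Ociad1 and Atp5g1 for Idh1.

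**Figure D3:**
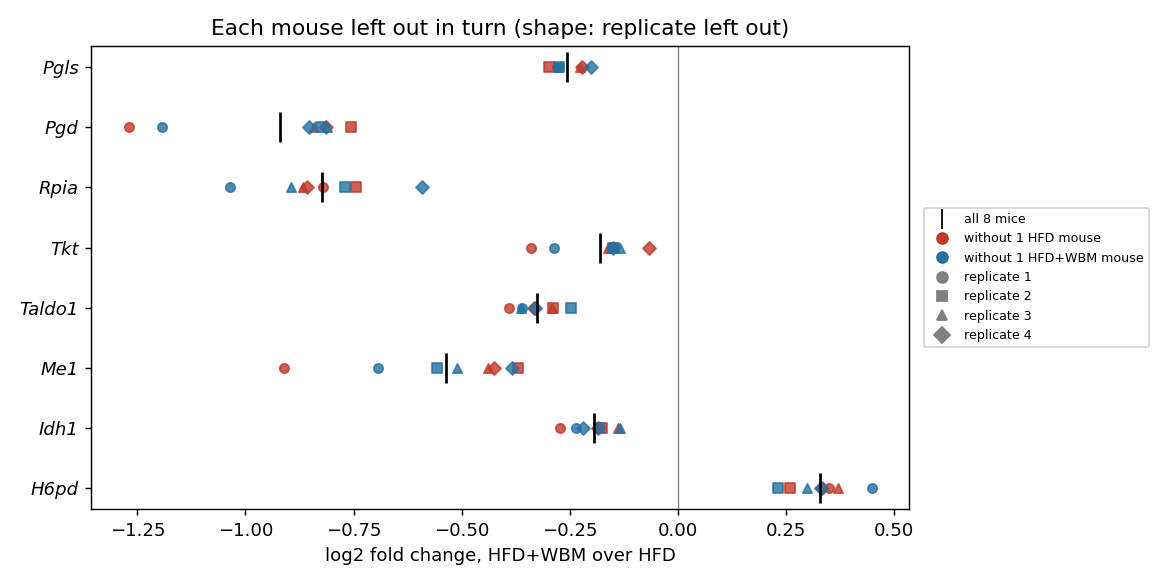
Log2 fold change of each gene, HFD+WBM over HFD, with all 8 mice (black bar) and with each mouse left out in turn (red for an HFD mouse, blue for an HFD+WBM mouse, the shape giving the replicate). No estimate crosses 0. Pgd, Taldo1, Tkt, Me1 and Idh1 are each farthest below 0 without HFD replicate 1.

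Replicate 1 of each diet also stood apart in lipogenic genes. The mean log2 value of Fasn, Acly, Acaca, Elovl6, Pklr and Thrsp, whose fall in these samples was already known when they were listed, was 11.69, 12.97, 12.74 and 12.67 in HFD replicates 1 to 4 and 12.36, 10.83, 11.09 and 10.83 in HFD+WBM replicates 1 to 4. As for Pgd, replicate 1 of each diet lay between the other mice of the diets. Acaca, the gene nearest to Pgd, read 10.77 in HFD replicate 1 against 11.79 to 12.22 for replicates 2 to 4. With HFD+WBM it read 11.38 in replicate 1 against 10.39 to 10.56.

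Markers of other cells moved with the diets too. In whole liver, fewer cells of a type and less RNA per cell cannot be told apart. Of 10 hepatocyte markers none passed, with a median log2 fold change of 0.01, and their mean log2 value was 13.15 to 13.28 with HFD and 13.20 to 13.31 with HFD+WBM. Of 17 macrophage markers, 14 were lower (82.4%, against 6.9% of all genes, median -0.66), and 11 to 16 with 1 mouse left out. Their mean log2 value was 8.570 to 9.231 with HFD and 8.023 to 8.573 with HFD+WBM, so that the groups just overlapped. Their summed intensity, to which bright markers add most, was 10535 to 15338 with HFD and 7247 to 10146 with HFD+WBM, and none was listed at 0. Their part in the lower Rpia, Taldo1 and Pgls values was not tested. Among the HFD mice, replicate 1 had the highest mean of the macrophage markers (9.23, against 8.57 to 9.13) and the lowest Pgd and Me1. This is 1 liver, and the part of macrophages in the Pgd and Me1 values was not tested.

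Among the remaining lists, 5 of 12 stellate cell and matrix genes were lower (median -0.35, summed intensity 6197 to 8948 with HFD and 5329 to 6830 with HFD+WBM), and 2 of 10 sinusoidal endothelial markers were lower (median -0.27, 6310 to 9802 and 5450 to 8043). Those were 41.7% and 20% of their lists, against 6.9% lower among all genes. Of 10 neutrophil markers 1 was higher (median 0.31, 828 to 1251 and 1216 to 1329), where 4.85% of all genes were higher. No marker passed among 7 of adipocytes (median -0.01), 9 of lymphocytes (0.09), 6 of cholangiocytes (-0.27) and 3 of erythroid cells (-0.09). The part of these cells in the values of the 8 genes was not tested.

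**Figure D4:**
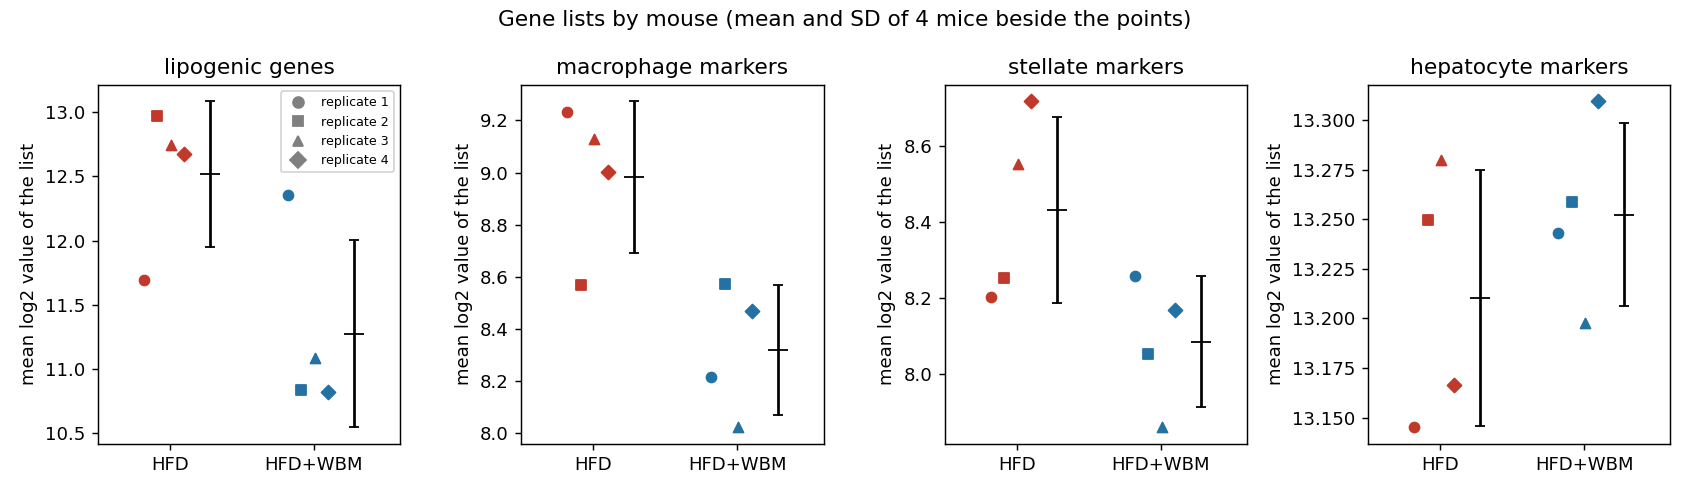
Mean log2 value of 4 gene lists per liver, red for HFD and blue for HFD+WBM, a shape for each replicate, and bars for mean and SD (4 livers); each panel has its own axis. In the lipogenic genes replicate 1 of each diet lies between the other mice, which is not so in the macrophage markers, where HFD replicate 1 is the highest mouse.

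Some genes beside this route were lower as well. Of 14 measured genes that complete the pentose phosphate pathway or use its ribose, 8 had an estimate below 0. Their median log2 fold change was -0.06, against 0.01 over all genes. At the p threshold 5 were lower (Pgm2, G6pd2, Rpe, Prpsap2 and Dera), or 35.7% against 6.9% of all genes, 0 were higher and 9 did not pass. The count was 4 with either rescaling of the arrays, with the replicate block, and without HFD replicate 2 or 3 or HFD+WBM replicate 1 or 2. It was 3 without HFD replicate 4 or HFD+WBM replicate 4. Rpe, the epimerase that stands beside Rpia at the ribulose-phosphate branch, was 8.71 to 9.01 in the HFD mice and 7.87 to 8.47 in the HFD+WBM mice. The groups did not overlap and the log2 fold change was -0.54 (standard error 0.17, p = 0.011 before adjustment, limma; exact permutation p = 0.029, two-sided).

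Pgm2, the phosphopentomutase that recovers ribose from nucleosides, was 7.54 to 8.11 with HFD and 7.17 to 7.29 with HFD+WBM, also without overlap (log2 fold change -0.61, standard error 0.16). Dera, which splits deoxyribose-phosphate, and Prpsap2, a partner of the ribose pyrophosphate synthetases, were lower in every HFD+WBM mouse, with log2 fold changes of -0.33 and -0.43. The synthetase genes Prps1 (-0.09) and Prps2 (0.23) did not pass.

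G6pd2 is an intronless copy of G6pdx, and its probe set cannot be taken as free of G6pdx transcripts. It read 7.22, 8.48, 8.27 and 8.37 in HFD replicates 1 to 4 and 7.45, 7.23, 6.88 and 7.06 in HFD+WBM replicates 1 to 4. HFD replicate 1 lay among the HFD+WBM mice, as it did for Pgd, and the other 3 HFD mice lay above all of them. The log2 fold change was -0.93 (standard error 0.28, p = 0.0080 before adjustment, limma; exact permutation p = 0.086, two-sided).

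**Figure D5:**
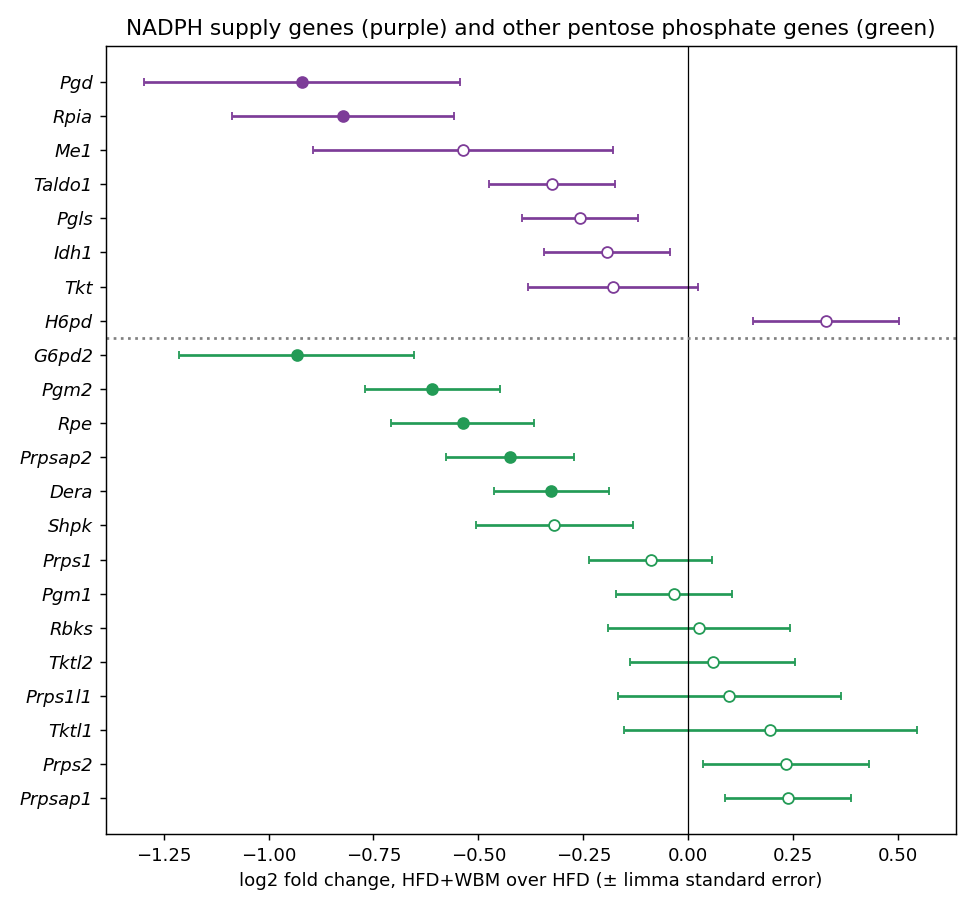
Log2 fold change of each gene, HFD+WBM over HFD (4 mice each), with its limma standard error; filled points have p under 0.05 before adjustment. Purple points above the dotted line are the 8 genes of NADPH supply. Green points are the 14 other genes that complete the pentose phosphate pathway or use its ribose, of which G6pd2, Pgm2, Rpe, Prpsap2 and Dera are lower.

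A further list held 13 genes of NADP synthesis and of mitochondrial or folate-linked production of NADPH or NADH. Of these, Me2, a mitochondrial malic enzyme that works mainly with NAD, was lower (log2 fold change -0.52, standard error 0.22). That is 7.69% of the list, near the 6.9% of all genes. None was higher and 12 did not pass, with a median of 0.06. For Me2 every HFD+WBM mouse lay below every HFD mouse. It did not pass by the methods' t-test or without HFD replicate 1 or 4 or HFD+WBM replicate 1 or 3. The estimates were 0.15 for Idh2, the mitochondrial counterpart of Idh1, 0.49 for Mthfd2 (standard error 0.25) and -0.69 for Me3 (standard error 0.48). Of 11 genes that feed or drain citrate and malate, Cs, the citrate synthase (-0.55, standard error 0.17), and Acly, which cleaves citrate (-1.22, standard error 0.51), were lower, and the next smallest p was that of the malate dehydrogenase Mdh2 (-0.21, standard error 0.14). The lower genes were 18.2% of this list, against 6.9% of all genes. Acly did not pass by the methods' t-test, with the replicate block or without replicate 2, 3 or 4 of either diet, which left Cs alone. The estimate for the citrate carrier Slc25a1 was -0.08 (standard error 0.21).

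Of 11 measured genes around glucose-phosphate, Pklr, the liver pyruvate kinase (-0.93, standard error 0.28), was lower and 10 did not pass. That is 9.09% of the list, near the 6.9% of all genes. The lower genes numbered 3 by the methods' t-test or with a variance prior set by signal level, and 2 with an offset of 64. The glucose transporter Slc2a2 had an estimate of -0.27 (standard error 0.13), and Slc37a4, which carries glucose-phosphate into the endoplasmic reticulum where H6pd uses it, one of -0.26 (standard error 0.15). Hsd11b1, which draws on the NADPH of H6pd, had one of 0.13 (standard error 0.14).

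Among users of NADPH, 2 of 8 genes of fatty acid and sterol synthesis were lower, or 25% against 6.9% of all genes. These were Fasn (-1.35, standard error 0.45) and Hsd17b12, the ketoacyl-CoA reductase of elongation (-0.47, standard error 0.16), which was lower in every HFD+WBM mouse. All 8 estimates were below 0 (median -0.30), against 49.3% of all genes, among them Kdsr (-0.29, standard error 0.23). Of 10 genes of redox defence and other reductases, 2 were lower, or 20% against 6.9% of all genes. These were Cybb, the NADPH oxidase of phagocytes (-0.63, standard error 0.22), and Blvra, a biliverdin reductase (-0.39, standard error 0.17). The count was 1 under either rescaling of the arrays, with the replicate block, and without HFD replicate 3 or 4 or HFD+WBM replicate 1 or 2, and it was 0 without HFD+WBM replicate 3. Cyba, the partner subunit of Cybb, had an estimate of -0.38 (standard error 0.19). Cybb is a gene of macrophages, whose markers were lower as given above. Of 13 NRF2 targets, Hmox1, the heme oxygenase (-0.58, standard error 0.18), and Srxn1, sulfiredoxin (-0.59, standard error 0.24), were lower, Abcc3, an export pump (0.57, standard error 0.18), was higher, and 10 did not pass (median -0.05). The lower genes were 15.4% of this list, where 6.9% of all genes were lower and 4.85% higher. Srxn1 did not pass by the methods' t-test, and without HFD replicate 1 or 4 or HFD+WBM replicate 2 or 3 the lower genes numbered 1. The estimates of the target genes Nqo1 (-0.17), Gclc (0.03) and Gclm (-0.05) were close to 0.

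Of 11 genes of transcriptional regulators of this supply none passed in either direction. The estimates with the smallest p were those of Bach1, the repressor of NRF2 sites (0.33, standard error 0.17; higher in every HFD+WBM mouse), Srebf1, the lipogenic factor (-0.50, standard error 0.33), and Nr1h3, the sterol receptor LXR alpha (-0.20, standard error 0.13). The estimate for Nfe2l2, which encodes NRF2, was -0.20 (standard error 0.16).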

How the data were processed

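Affymetrix Mouse Gene 1.0 ST arrays carried the liver RNA of 8 OVX mice. Background correction, normalization and summary by the authors used IterPLIER (Affymetrix Power Tools 1.8.6 per the submitters' notes), and each deposited value is a log2 expression value. The sources used here name no offset. Of 28944 probe sets, 21789 name 1 gene by the platform annotation, 1621 several, and 5534 none. Symbols were updated by gene number (21698 matched to GRCm38.p6, 91 kept). The brightest probe set stood for each of 19938 genes. Diets, taken from sample titles, were compared in R 4.3.3 with limma 3.58.1 (lmFit, eBayes), diet as the only term, Benjamini-Hochberg over all genes. For array genes the methods name ArrayTools with thresholds of p 0.05 and 2-fold, and for comparing the diets a t-test, run here as an alternative. The code was tested on simulated data. The number of arrays limits the precision, and p-values set the difference between the diets against the spread between these livers.

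The genes, lists and tests were chosen with earlier results of these data known. Named were the 8 genes, list genes at p under 0.05 or else with the 3 smallest p, and the 3 nearest genes by pattern. Gclc, Gclm, Hsd11b1, Idh2, Nfe2l2, Nqo1, Prps1, Prps2 and Slc25a1 were named after their values were seen. Planned pairs with G6pdx were not run. Alternatives changed scaling, offset, filter, probe set rule, variance prior, array weights, test, replicate block and mice left out.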

Additional observations from a re-analysis of the deposited data

Results flagged for a closer look

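In each of 27 genes (the 8 genes of NADPH supply and the changed genes of the lists), the values of 4 mice per diet were searched for a mouse far from the other 3. This picked out 11 of 54 groups, where chance gives about 1 in 20, and genes that vary together are not independent. In HFD replicate 1, Pgd was 9.11 (10.39 to 10.65 in the other HFD mice), Me1 11.13 (12.54 to 12.75), G6pd2 7.22 (8.27 to 8.48) and Pklr 12.15 (12.81 to 12.89). In HFD+WBM replicate 1, Pgd was 10.06 (8.91 to 9.03 in the other HFD+WBM mice), Tkt 10.81 (10.35 to 10.40), Acly 12.47 (10.66 to 10.80) and Cs 10.97 (10.63 to 10.68). Single mice stood apart for Pgls in HFD+WBM replicate 4 (8.23, against 8.46 in each of the others), Cybb in HFD replicate 2 (8.78, against 9.45 to 9.56) and Rpe in HFD replicate 3 (9.01, against 8.71 to 8.75).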

How the results depend on the processing

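The estimates of the 8 genes kept their sign under every alternative run, with Rpia not tested among the brightest 50% of genes. The count of genes past p under 0.05 and 2-fold, 152, was 65 with an offset of 16 and 32 with an offset of 64 before the log, 43 in the brightest 50% of genes, 98 by the methods' t-test, 890 at 1.5-fold, and 154 to 235 with 1 mouse left out. At an adjusted p under 0.05 it was 2, 80 and 19 under those offsets and that filter, 139 where the variance prior depends on signal level, and 0 to 1 with 1 mouse left out. The 2 lower genes of NADPH supply became 4 with an offset of 64 or the signal-level prior and 1 to 4 with 1 mouse left out. Pgd (-0.92) no longer passed by the methods' t-test. Pgls (-0.26) passed by that test. Taldo1 passed with an offset of 64 (-0.30), and (-0.33) in the brightest genes, with the signal-level prior, with array weights and by that test. Me1 (-0.53 and -0.54) and H6pd (0.32 and 0.33) passed with an offset of 64 and with the signal-level prior. The cause was not tested. With 1 mouse left out, log2 fold changes ran from -1.27 to -0.76 for Pgd, -0.30 to -0.20 for Pgls, -0.39 to -0.25 for Taldo1, -0.34 to -0.07 for Tkt, -1.04 to -0.59 for Rpia, -0.91 to -0.37 for Me1, -0.27 to -0.14 for Idh1 and 0.23 to 0.45 for H6pd. Of 484 values of 27 named genes under alternatives, 0 reversed, 47 no longer passed and 13 newly passed.

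The sample titles do not say whether same-numbered mice belong together, and the paper describes pair feeding between the diet groups. Deviations of same-numbered mice correlated at -0.12 to -0.02, which cannot show whether mice were paired. With the replicate block, 1 of the 8 genes was lower, and Pgd (-0.92) no longer passed. The number of arrays, and for dim probe sets such as Rpia the signal over background, limit what can be seen.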
